A study of Homo sapiens with 6 samples.

Results

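MEIS1, MEIS2, MEIS3, PBX2, PBX3, PBX4, PKNOX1, TGIF1 and TGIF2 are homeobox genes of the TALE class. They were taken by gene name, with earlier results of these data known, and all 9 were found among the 28307 genes of the count table. RNA sequencing of OCI-AML3 cells compared an siRNA against the mutant form of NPM1 (siNPM1c, 3 libraries) with a control siRNA (siControl, 3 libraries). OCI-AML3 is an established human acute myeloid leukaemia line whose mutant nucleophosmin, NPM1c, sits in the cytoplasm, and the labels give the genotype of all 6 libraries as WT. Both siRNAs were used at 10 nM, the cells were harvested on day 3, and total RNA was sequenced. All results therefore come from 1 cell line and 1 time point.

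TALE homeodomain proteins carry a short loop extension inside the homeodomain and act mainly as partners of other transcription factors. MEIS and PKNOX proteins bind DNA together with PBX proteins and with HOX proteins, and PBX proteins are the classic partners that sharpen the DNA choice of HOX proteins. In NPM1-mutant leukaemia HOXA9, MEIS1 and PBX3 are known as a co-expressed group that maintains the leukaemic state. TGIF proteins bind a similar DNA core but act as corepressors, among others of SMAD proteins in the transforming growth factor beta (TGF-beta) pathway.

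The promoters of MEIS1 and PBX3 are shown because they are the best known partners of HOXA9 among the members and differ in the DNA core bound by their own class. The 250 bases before the RefSeq start site of each gene (GRCh38.p14, plus strand) are given 5′ to 3′ for MEIS1 at chr2:66434875-66435124 and for PBX3 at chr9:125747933-125748182. Capitals mark the core TGACAG of MEIS, PKNOX and TGIF proteins, or its reverse complement.
MEIS1 promoter: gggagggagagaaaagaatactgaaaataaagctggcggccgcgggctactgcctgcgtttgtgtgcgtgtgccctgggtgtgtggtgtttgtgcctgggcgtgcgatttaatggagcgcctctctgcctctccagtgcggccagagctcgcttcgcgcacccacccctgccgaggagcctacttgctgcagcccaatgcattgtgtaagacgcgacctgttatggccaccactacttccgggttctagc
PBX3 promoter: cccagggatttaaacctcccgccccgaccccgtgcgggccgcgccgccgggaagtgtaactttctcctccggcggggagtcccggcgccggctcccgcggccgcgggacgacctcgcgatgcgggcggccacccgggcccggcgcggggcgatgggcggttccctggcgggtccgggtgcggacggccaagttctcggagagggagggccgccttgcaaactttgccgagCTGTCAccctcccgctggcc
The PBX3 window held the core, on the reverse strand, starting 20 bases before the start site, and the MEIS1 window did not hold it. Both TGIF1 matches are shown as stretches of 30 bases, at chr18:3447409-3447438 and chr18:3450016-3450045 on the plus strand, because TGIF1 is the member that rose with groups apart.
TGIF1 second start site: actggaagggacTGACAGagctagaaatga
TGIF1 sixth start site: ccgagggacgagTGACAGcggccgccgcgc
RefSeq lists 18 windows for the 9 genes, 7 of them for TGIF1, and some of these overlap. With both strands searched, TGACAG lay in 3 of the 18 windows, belonging to PBX3 and TGIF1, against 13% of 35116 promoter windows of the same length. The composite TGATNNAT, the core bound by PBX with HOX proteins, lay in 3 of the 18 windows, against 6.47% of all windows. Among these genes the 3 windows belonged to MEIS2 and TGIF1 only. No single stretch of bases can match both motifs at the same start. These are matches of letters, not measured binding sites.

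The libraries held 15075235 to 25190122 counts. Ribosomal RNA genes took 63.8% ± 0.753 (SD, n = 3) of them in siControl and 70.2% ± 0.813 in siNPM1c, and protein-coding genes were left with 3414688 to 6695652 counts per library. Levels are CPM, counts scaled to a common library size adjusted by TMM, a scaling that takes most genes as level. NPM1, the target, had 922, 1366 and 922 counts in siControl replicates 1, 2 and 3 and 293, 500 and 350 in siNPM1c, with mutant and wild-type transcripts counted together. Its level fell 2.15-fold. Of the 8 markers of this line, CD33, ANPEP, SPI1, PTPRC, AZU1 and ELANE were present in every library, MPO had 10 to 39 counts and KIT 0 to 2. The summed level of 9 markers of lymphoid, erythroid, megakaryocytic, epithelial, liver and fibroblast cells was 2.57 to 3.00 CPM in siControl and 2.11 to 3.74 CPM in siNPM1c, with HBB at 0 throughout. PECAM1, an endothelial marker that myeloid cells also carry, stood at 43.0 ± 0.620 CPM in siControl and 52.6 ± 3.82 CPM in siNPM1c (SD, n = 3). The sum of the line's own markers was 536 to 548 CPM in siControl and 702 to 713 CPM in siNPM1c, with SPI1 1.56-fold higher and PTPRC 1.49-fold lower. With library sizes alone, where total counts set the scale without TMM, the median of the 7 tested markers was -0.05 log2 in place of 0.42, with 3 lower and 2 higher, AZU1 and ELANE stood at -0.01 and -0.05, and PECAM1 at -0.18. The part of these changes in the results on TALE genes was not tested.

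The comparison asked how the TALE genes differed between cells given the NPM1c siRNA and control cells. MEIS1, PBX3 and PKNOX1 fell, TGIF1 and MEIS3 rose, and MEIS2, PBX2, PBX4 and TGIF2 did not pass the test. The test was edgeR's quasi-likelihood test over all 12938 genes that passed the filter on low counts, all 9 members among them, two-sided, with Benjamini-Hochberg adjustment and a threshold of 0.05. Over all genes tested it called 21.4% lower and 21.3% higher, 42.7% in all. The members' 3 lower and 2 higher of 9 therefore lie near this background, and what the data show is which members moved and which way. Groups did not overlap in 4 of 9 members, against 49.2% of all genes tested. The labels do not say whether replicates came from separate cultures, so the p-values reflect only how far these libraries scatter, and that scatter may be technical. In bulk RNA, less RNA per cell and fewer cells that make it cannot be told apart.

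**Figure D1:**
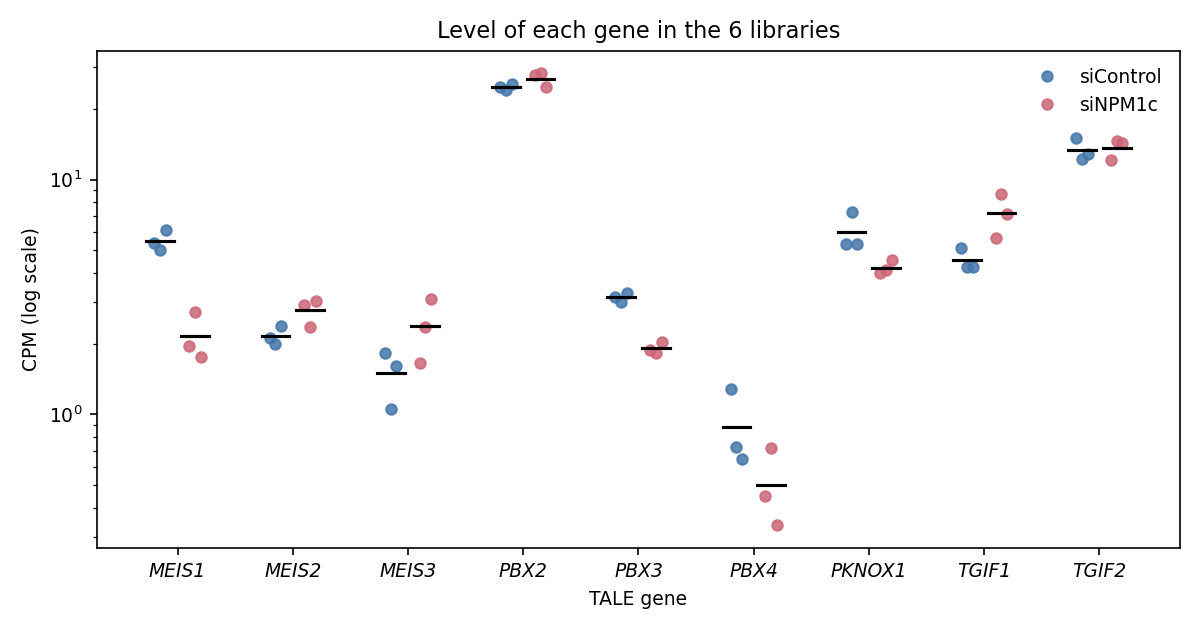
Level of each of the 9 genes in CPM (log axis) in the 3 siControl (blue) and 3 siNPM1c (red) libraries, with black bars at the group means. MEIS1, PBX3 and PKNOX1 are lower and TGIF1 is higher in every siNPM1c library than in any siControl library, and the groups of the other genes overlap.

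MEIS1, the partner that works with HOXA9 in leukaemic self-renewal (Entrez 4211, chromosome 2, 66433452 to 66573869 on the plus strand in GENCODE 29 on GRCh38), had the largest log2 fold change of the members in edgeR's test. It had 97, 138 and 113 counts in siControl replicates 1, 2 and 3 and 26, 57 and 26 in siNPM1c. These are levels of 5.39, 5.00 and 6.08 CPM against 1.96, 2.73 and 1.76 CPM. Every siNPM1c library lay below every siControl library, and the siNPM1c library with the highest level, replicate 2, was the deepest of its group. MEIS1 fell 2.45-fold (-1.30 ± 0.17 log2, SE, adjusted p = 5.71e-12 in edgeR's test). The antisense RNA MEIS1-AS2 lies inside MEIS1 and had 9 to 31 counts per library. Its difference of -0.65 ± 0.30 log2 (SE) missed the threshold (adjusted p = 0.0689 in edgeR's test), although its groups did not overlap. The strand setting of the counting is not given in the sources used here, so reads of the gene and of its antisense RNA cannot be told apart.

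MEIS2, a close relative of MEIS1 with roles in limb and heart development (Entrez 4212, chromosome 15, 36889204 to 37101299), had 38, 55 and 44 counts in siControl and 39, 49 and 45 in siNPM1c. Its level was 2.11, 1.99 and 2.37 CPM against 2.93, 2.35 and 3.04 CPM, and the groups overlapped by their nearest libraries. The log2 fold change was 0.35, with a 95% interval of -0.04 to 0.74 and an adjusted p of 0.147 in edgeR's test. MEIS3, the third MEIS gene (Entrez 56917, chromosome 19, 47403124 to 47419523), had 33, 29 and 30 counts in siControl and 22, 49 and 46 in siNPM1c. Its level was 1.83, 1.05 and 1.62 CPM against 1.65, 2.35 and 3.11 CPM. Replicate 1 of siNPM1c lay among the siControl libraries, the other siNPM1c libraries above all of them. MEIS3 was 1.65-fold higher (0.72 ± 0.23 log2, SE, adjusted p = 0.00648 in edgeR's test). That call rests on few counts: leaving out siControl replicate 2 gave 0.47 log2 (adjusted p = 0.126) and leaving out siNPM1c replicate 3 gave 0.51 (adjusted p = 0.115). DESeq2 gave an adjusted p of 0.0739. The copy MEIS3P1 on chromosome 17 was counted with 68 to 136 counts per library and was 1.37-fold higher (adjusted p = 0.00424 in edgeR's test), but stood at -0.01 log2 with library sizes alone (adjusted p = 0.949). How reads that fit both were counted is not given.

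PKNOX1, also called PREP1, which competes with MEIS proteins for PBX partners (Entrez 5316, chromosome 21, 42974510 to 43033931), had 96, 200 and 99 counts in siControl and 53, 86 and 67 in siNPM1c. Its level was 5.34, 7.24 and 5.33 CPM against 3.99, 4.12 and 4.53 CPM. The groups did not overlap, and siControl replicate 2 stood above the other siControl libraries. PKNOX1 fell 1.45-fold (-0.54 ± 0.14 log2, SE, adjusted p = 0.000651 in edgeR's test). Without siControl replicate 2 the log2 fold change was -0.34 and the adjusted p 0.0856.

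PBX3, the PBX protein most often found with HOXA9 and MEIS1 in leukaemia (Entrez 5090, chromosome 9, 125747345 to 125967377), had 57, 83 and 61 counts in siControl and 25, 38 and 30 in siNPM1c. Its level was 3.17, 3.01 and 3.28 CPM against 1.88, 1.82 and 2.03 CPM. Libraries of a group lay close together and the groups were well apart. PBX3 fell 1.65-fold (-0.72 ± 0.20 log2, SE, adjusted p = 0.00127 in edgeR's test).

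PBX2, a broadly expressed PBX gene in the major histocompatibility region (Entrez 5089, chromosome 6, 32184741 to 32190186), was the best measured member, with 365 to 667 counts per library. Its level was 24.9, 24.2 and 25.5 CPM in siControl against 27.8, 28.3 and 24.7 CPM in siNPM1c, and replicate 3 of siNPM1c lay within the siControl range. The log2 fold change was 0.13, with a 95% interval of 0.00 to 0.25 and an adjusted p of 0.0894 in edgeR's test. Without that library it was 0.19 with an adjusted p of 0.0213. PBX4 (Entrez 80714, chromosome 19, 19561707 to 19618916), best known from testis, had 23, 20 and 12 counts in siControl and 6, 15 and 5 in siNPM1c. Its level was 1.28, 0.724 and 0.646 CPM against 0.451, 0.719 and 0.338 CPM. The log2 fold change was -0.70, and its 95% interval ran from -1.43 to 0.03 (adjusted p = 0.117 in edgeR's test). It was -0.39 without siControl replicate 1 and -1.12 without siNPM1c replicate 2, and did not pass the test in either case.

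TGIF1, a corepressor of SMAD and retinoid signalling (Entrez 7050, chromosome 18, 3411608 to 3459978), had 92, 117 and 79 counts in siControl and 75, 182 and 106 in siNPM1c. Its level was 5.12, 4.24 and 4.25 CPM against 5.64, 8.72 and 7.16 CPM. All siNPM1c libraries lay above the siControl libraries, but they were spread more widely, with replicate 1 close to the highest siControl library. TGIF1 rose 1.63-fold (0.71 ± 0.13 log2, SE, adjusted p = 1.17e-06 in edgeR's test). TGIF2, its paralogue (Entrez 60436, chromosome 20, 36573488 to 36593950), stood at 15, 12.2 and 12.9 CPM in siControl and 12.1, 14.6 and 14.3 CPM in siNPM1c, with interleaved libraries. Its log2 fold change was 0.06, with a 95% interval of -0.10 to 0.23. TGIF2-RAB5IF, a read-through gene over TGIF2, had 0 to 2 counts per library. Of the genes that overlap or adjoin members, RAB5IF near TGIF2 rose 2.17-fold (adjusted p = 6.03e-05 in edgeR's test). RAB5IF had 20 to 42 counts per library. GPSM3 near PBX2 rose 1.15-fold, with -0.26 log2 under library sizes alone. AGER, also near PBX2, stood at 0.05 log2 and was not called (adjusted p = 0.763 in edgeR's test).

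**Figure D2:**
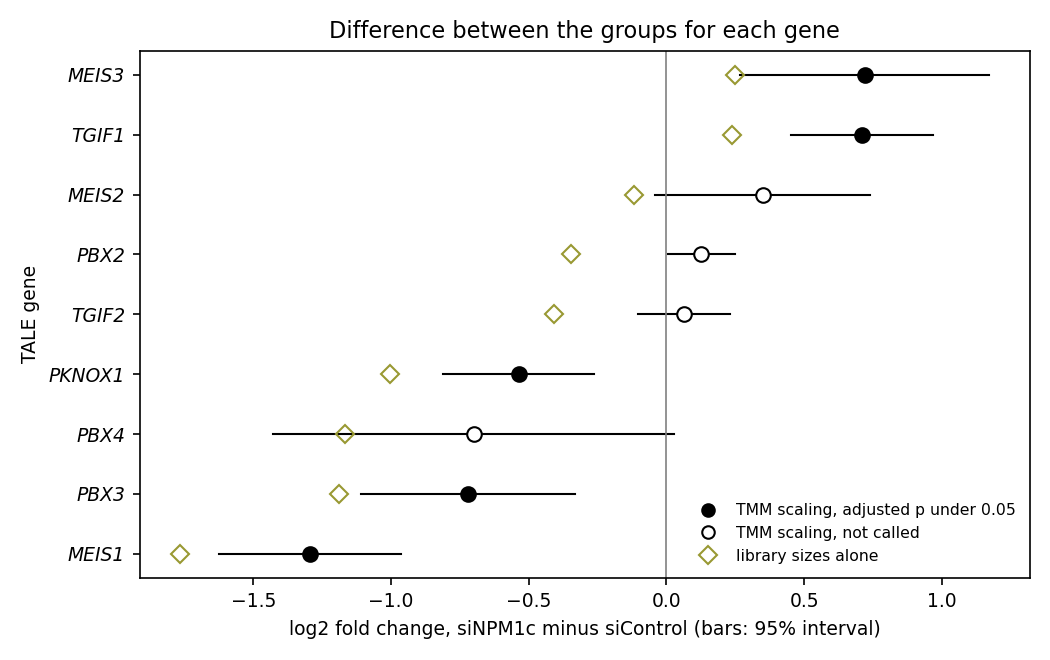
Log2 fold change (siNPM1c minus siControl, x axis) of the 9 genes, with circles and 95% intervals under TMM scaling, filled where the adjusted p was under 0.05, and diamonds for library sizes alone. MEIS1, PBX3 and PKNOX1 are filled on the left at -1.30, -0.72 and -0.54, MEIS3 and TGIF1 on the right at 0.72 and 0.71, and all diamonds lie to the left of their circles.

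The scaling sets the zero of these changes. When only the total counts set the scale (library sizes alone), so that ribosomal RNA counts as depth, the median over all genes tested was -0.48, against -0.01 under TMM. On that scale MEIS1 stood at -1.77, PBX3 at -1.19, PBX4 at -1.17 and PKNOX1 at -1.0. TGIF2, PBX2 and MEIS2 stood at -0.41, -0.34 and -0.12. TGIF1 and MEIS3 kept a positive sign at 0.24 and 0.25 but passed no threshold (adjusted p = 0.0899 and 0.315 in edgeR's test). On that scale 6 members were called lower and 0 higher, where 71.5% of all genes were called lower and 3.92% higher. At an unadjusted p under 0.05 the members higher on that scale numbered 0. DESeq2, with its own size factors and its own test, called 1 member higher, TGIF1. Its size factors in the edgeR fit left 2 members higher.

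Ratios of 2 genes within a library do not depend on scaling (0.5 was added to each count), and 8 were compared between the groups. The ratio of MEIS1 to PKNOX1 was 1.83-fold lower in siNPM1c, with log2 ratios of 0.01, -0.53 and 0.19 in siControl and -1.01, -0.59 and -1.35 in siNPM1c. The ratio of MEIS1 to PBX3 was 1.57-fold lower and that of MEIS1 to HOXA9 1.40-fold lower. The latter difference, -0.48 log2, was -0.23 without siNPM1c replicate 1. The ratios of MEIS2 and MEIS3 to PKNOX1 were 1.79-fold and 2.20-fold higher, and the second, 1.13 log2, was 0.75 without siControl replicate 2. The ratio of PBX3 to PBX2 was 1.77-fold lower, with log2 ratios of -2.96, -3.00 and -2.94 against -3.86, -3.94 and -3.58, and that of PBX4 to PBX2 was 1.83-fold lower (-0.87 log2, and -0.58 without siControl replicate 1). The ratio of TGIF1 to TGIF2 was 1.52-fold higher, with log2 ratios of -1.54, -1.52 and -1.59 against -1.10, -0.74 and -1.0. MEIS1, PKNOX1, PBX2 and PBX3 each enter more than 1 of the 8 ratios, so these are not separate observations. How often the groups lie apart for other gene pairs was not tested. For each of the 8 ratios the groups did not overlap. A two-sided exact permutation test with 3 libraries a group gave p = 0.1 for each, also after Benjamini-Hochberg adjustment over the 8. This is the smallest p such a design allows, so none of these ratios can pass a threshold of 0.05.

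The same counts can be read as shares of each family, given without a test. MEIS1 made up 36.7%, 32.7% and 39.5% of the MEIS and PKNOX1 counts in siControl, against 18.6%, 23.7% and 14.1% in siNPM1c. The share of MEIS2 went from 14.3% ± 1.18 (SD, n = 3) to 24.2% ± 3.77 and that of MEIS3 from 9.95% ± 2.85 to 20.3% ± 4.64, without overlap of the groups. PKNOX1 held 39.5% ± 6.93 and 36.7% ± 1.11, and its groups overlapped, although its level in CPM fell 1.45-fold. Among PBX2, PBX3 and PBX4, the share of PBX3 went from 10.9% ± 0.217 to 6.55% ± 0.841, and PBX2 held 86.0% ± 1.04 and 91.8% ± 0.50. TGIF1 made up 25.4% ± 0.475 of the TGIF counts in siControl and 34.2% ± 2.89 in siNPM1c. Gene length enters these shares, since long transcripts give more counts. Shares within a family are also tied, so a fall of MEIS1 alone raises those of the other genes. The level of MEIS2 in CPM did not pass the test.

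**Figure D3:**
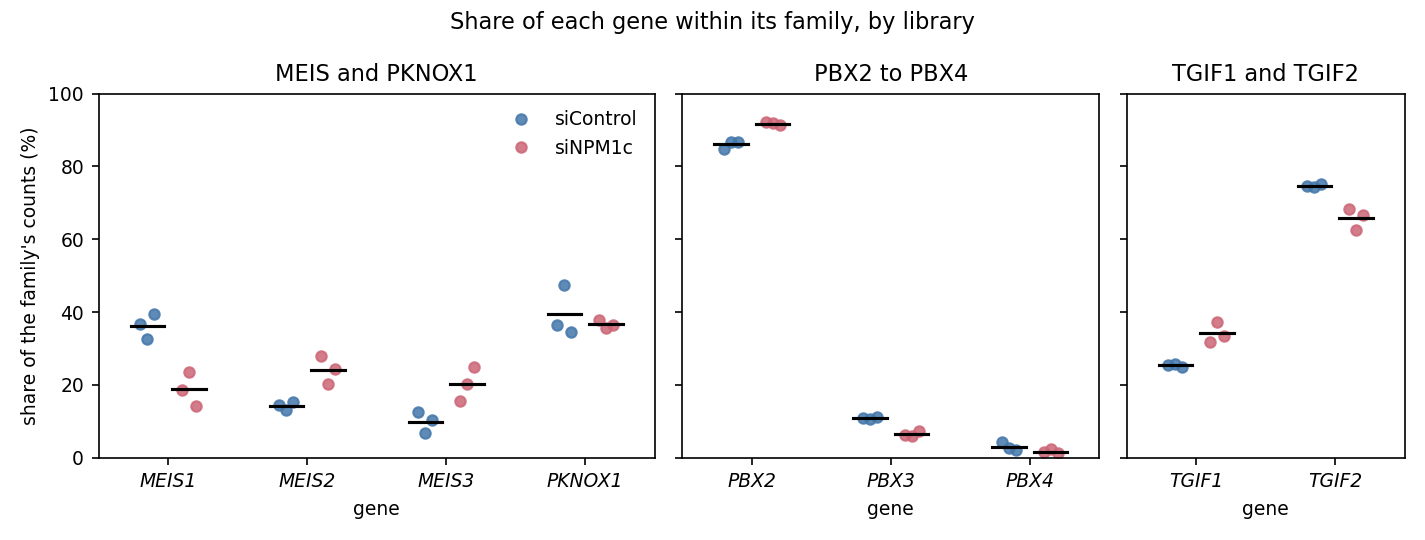
Share of each gene in the summed counts of its family (percent, y axis) in every library, siControl in blue and siNPM1c in red, with black bars at the means. The mean MEIS1 share is 36.3% in siControl and 18.8% in siNPM1c, that of PBX3 10.9% and 6.55%, and that of TGIF1 25.4% and 34.2%.

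Levels of different genes were compared per kilobase of exon, over the union of GENCODE 29 exons. In siControl, PBX2 was highest at 5.72 ± 0.150 CPM per kilobase (SD, n = 3), followed by TGIF2 at 3.53 ± 0.379, and these ranges lay apart from each other and from the rest. PKNOX1 (0.783 ± 0.145) and PBX3 (0.696 ± 0.0308) followed with overlapping ranges, then TGIF1 (0.552 ± 0.0610) and MEIS1 (0.502 ± 0.0502), which also overlapped. PBX4 (0.346 ± 0.135) overlapped both MEIS1 and MEIS3 (0.293 ± 0.0790), and MEIS2 was lowest at 0.200 ± 0.0178, overlapping MEIS3. In siNPM1c, PBX2 and TGIF2 again led, at 6.19 ± 0.454 and 3.62 ± 0.361 CPM per kilobase. TGIF1 came next at 0.872 ± 0.187, above the range of PKNOX1 (0.552 ± 0.0368), and PKNOX1, MEIS3 (0.463 ± 0.142) and PBX3 (0.422 ± 0.0234) followed, MEIS3 overlapping both of its neighbours. MEIS1 stood at the bottom with 0.196 ± 0.0471, overlapping PBX4 at 0.197 ± 0.0766 and MEIS2 at 0.257 ± 0.0345. The order depends on which exons are counted as a gene's length, and the annotation used for counting is not given in the sources used here.

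Further TALE genes described here were IRX genes, MKX, PKNOX2 and TGIF2LX. Of these 9 genes, 3 passed the filter and all 3 fell, with a median of -0.50 log2, beside 21.4% lower over all genes tested. The list is not complete for the class. IRX3, an Iroquois homeobox gene that is switched on in many acute leukaemias, had the highest level of these, at 140.3, 139 and 139 CPM in siControl against 104, 109 and 104 CPM in siNPM1c, with the groups apart. It fell 1.31-fold (-0.39 ± 0.03 log2, SE, adjusted p = 3.05e-27 in edgeR's test). Its neighbour in the same gene cluster, IRX5, fell 1.41-fold, from 36.2 ± 0.702 to 25.6 ± 0.867 CPM (SD, n = 3). MKX, the Mohawk homeobox gene known from tendon, fell 1.93-fold, from 33.9 ± 0.862 to 17.7 ± 1.53 CPM. PKNOX2, IRX1, IRX2, IRX4, IRX6 and TGIF2LX had at most 7 counts in any library.

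HOX genes encode the partners of the TALE proteins. Of 21 HOXA and HOXB genes, 17 were tested, 15 fell and 0 rose, against 21.4% lower and 21.3% higher over all genes tested. The median was -1.07 log2 beside -0.01 over all genes. With library sizes alone 17 were lower and 0 higher (median -1.55), where 71.5% of all genes were lower. HOXA9 itself had 134, 164 and 148 counts in siControl against 67, 80 and 43 in siNPM1c. The 4 with the smallest p, HOXA11, HOXA13, HOXA10 and HOXB8, fell 2.10-fold, 2.77-fold, 1.78-fold and 4.30-fold. Of the 18 HOXC and HOXD genes, 0 passed the filter.

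Of 20 genes described as targets of MEIS1 and HOXA9, 16 were tested, 7 fell, 3 rose and 6 did not pass. The median was -0.04 log2 beside -0.01 over all genes, of which 21.4% fell and 21.3% rose. With library sizes alone 13 were lower and 0 higher, with a median of -0.51 beside -0.48 over all genes. On that scale 71.5% of all genes were lower. SOX4, a transcription factor of progenitors, fell from 37.4 ± 1.10 to 20.9 ± 2.03 CPM (SD, n = 3), and TRIB2, a pseudokinase that promotes C/EBPα decay, from 22.6 ± 0.684 to 14.8 ± 1.67 CPM. CEBPA, the gene of C/EBPα, rose 1.20-fold and BCL2, the survival factor, 1.30-fold, and both turned to negative log2 fold changes under library sizes alone, -0.21 and -0.09.

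Among 20 regulators of TALE genes and proteins, 6 fell and 4 rose, with a median of -0.05 log2. Over all genes tested 21.4% fell and 21.3% rose, so these counts lie near the background. With library sizes alone 18 were lower and 0 higher (median -0.52), where 71.5% of all genes were lower and 3.92% higher (median -0.48). DOT1L, the methyltransferase that works with KMT2A fusions, rose 1.42-fold and stood at 0.04 log2 under library sizes alone. MYH9, the non-muscle myosin heavy chain, rose from 548 to 733 CPM but stood at -0.05 log2 on that scale. ELF1, an ETS factor that activates MEIS1 transcription, fell 1.52-fold, and XPO1, the export receptor that carries NPM1c to the cytoplasm, fell 1.26-fold. KAT7 and EP300, which the series title names and which were singled out with their values known, had log2 fold changes of -0.12 ± 0.07 (SE, adjusted p = 0.129 in edgeR's test) and -0.00 ± 0.04 (adjusted p = 0.949).

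The partners of TGIF in repression showed 4 lower and 4 higher of 13, and 12 lower and 0 higher with library sizes alone (median -0.52). Over all genes tested 21.4% were lower and 21.3% higher, and with library sizes alone 71.5% and 3.92% (median -0.48). The deacetylase genes HDAC1 and HDAC2 fell 1.25-fold and 1.35-fold, while SMAD3 rose 1.30-fold and RXRA, the retinoid partner receptor, 1.12-fold, with -0.09 and -0.30 log2 under library sizes alone. Among 12 tested genes of TGF-beta ligand, receptors and induced genes, 5 fell and 4 rose. With library sizes alone 11 were lower and 1 higher (median -0.47). The same shares of all genes form the background of this list. TGFBR1, the signalling receptor, fell from 58.7 ± 0.364 to 34.0 ± 1.63 CPM (SD, n = 3) and BHLHE40 1.19-fold. CDKN2B, a cell cycle inhibitor induced by TGF-beta, rose 1.79-fold and kept its sign under library sizes alone at 0.37 log2, while TGFB1 rose 1.19-fold and turned to -0.22.

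**Figure D4:**
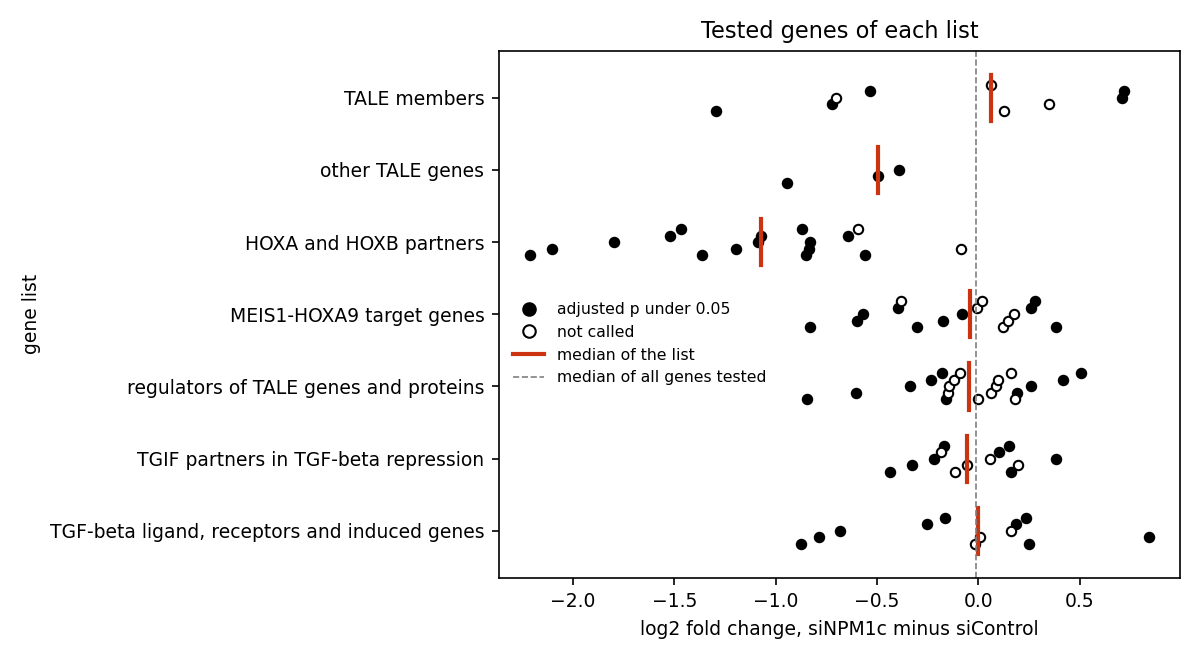
Log2 fold change (siNPM1c minus siControl) of each tested gene in 7 lists, filled where the adjusted p was under 0.05, with red bars at list medians and a dashed line at the median of all genes tested (-0.01). The HOXA and HOXB genes lie left of zero, the 3 further TALE genes too, and the 9 TALE members and the remaining lists lie on both sides.

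The genes whose course over the 6 libraries was most like that of a member were sought by the root mean square difference of their log2 CPM, each centred on its siControl mean. For MEIS1 they were CDK1 (0.131), GNPDA2 (0.158), SNORD4A (0.162), HOXB9 (0.175) and HOXA13 (0.178). For PBX3 they were RPL26 (0.0237), L3MBTL1 (0.0308), DHX40 (0.0352), DHX9 (0.0413) and FCGR2C (0.0421). GNPDA2 and SNORD4A had low levels, 0.716 and 1.10 CPM in siControl, where the prior count of 2 shrinks log2 differences most. Their fitted log2 fold changes were -1.65 and -1.47, beside -1.30 for MEIS1. Genes without a symbol, and genes with clone, LOC or open reading frame identifiers, were left out of this search. The measure mainly reflects the size of the difference between the groups. It is a description over 6 libraries and says nothing of shared function.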

How the data were processed

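The authors deposited 1 table of raw read counts per gene (whole numbers, Entrez identifiers, 28307 genes) for the 6 RNA-seq libraries. Per the submitters' processing notes, CASAVA 1.8, cutadapt 2.6, STAR 2.7.5a and DESeq2 1.34.0 were used, and the builds named are hg38 and mm10. What each did, the counting tool, its annotation and its strand setting are not given in the sources used here. Symbols came from the RefSeq GRCh38.p14 gene table, which matched 28261 identifiers. Genes were kept by filterByExpr (minimum count 10, minimum total 15), scaled by TMM and tested with edgeR 4.0.16 (glmQLFit, robust, and glmQLFTest) in R 4.3.3 on the 6 libraries, without covariates, with Benjamini-Hochberg adjustment over all genes. Standard errors were taken as the size of the log2 fold change over √F. The procedure was tested on simulated data. Alternatives included limma 3.58.1 (voom) and DESeq2 1.42.0. The named genes were NPM1, the 9 members, other TALE genes past the filter, HOXA9, up to 4 called genes per list with the smallest p, and the 5 genes most like MEIS1 and PBX3. The log2 CPM for likeness used a prior count of 2. The members and lists were chosen with earlier results of these data known. Some genes of the lists are not reported here and were left out of the lists' counts and medians.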

Additional observations from a re-analysis of the deposited data

How the results depend on the processing

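Across 18 alternatives, MEIS1 kept its direction and call in 18 and PBX3 in the 17 that tested it. PKNOX1 and TGIF1 kept theirs in 17 of 18 and MEIS3 in 13 of 17. With library sizes alone, 9760 genes were called, 6 members were lower and 0 higher, and MEIS2, PBX2 and TGIF2 reversed to -0.12, -0.34 and -0.41 log2. The filter of 5 CPM in 3 libraries left 1 member called higher, because MEIS3 was then not tested. DESeq2 also called 1 higher, with MEIS3 at 0.70 log2 (adjusted p = 0.0739 in DESeq2's test). DESeq2 size factors in the edgeR fit left 2 higher, with MEIS3 at 0.72 (adjusted p = 0.00602 in edgeR's test). The cause of this difference between the fits was not tested. Leaving out 1 library at a time gave 4631 to 5254 genes called, 2 to 3 members lower and 1 to 2 higher, and TGIF2 ranged from -0.00810 (without siControl replicate 2, a reversal) to 0.146.

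Same-numbered libraries did not deviate together (correlations 0.0193, -0.00266 and -0.00408). Counting noise enters these deviations, so the correlations show no pairing by number but cannot exclude it. The labels do not state a pairing. With the replicate number as a block, 5586 genes were called, the members stayed at 3 lower and 2 higher, and MEIS1 stood at -1.30 log2. The 8 ratios kept their differences in the block, with p = 0.25 in the exact sign-flip permutation test, the smallest that 3 pairs allow. Counts of 5 to 55 per library limit PBX4, MEIS2 and MEIS3.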
